A study of Homo sapiens with 6 samples.

Results

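The TGF-beta and activin signalling genes examined were the ligands TGFB1, TGFB2, TGFB3 and INHBA, the receptors TGFBR1, TGFBR2 and TGFBR3, and the intracellular mediators SMAD3, SMAD4 and SMAD7. These 10 genes were found through the RefSeq accession of each array probe, among 19740 genes that could be given a symbol. Each of the 10 was represented by 1 probe. All 10 probes were among the 27624 of 34127 probes kept for testing, a probe being kept if either group had it well above background on each of its 3 arrays. TGFBR3 met that condition through the control group alone.

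The cells were CAL-27, an established human tongue squamous cell carcinoma line that is known for loss of SMAD4 function. One group was stably transduced with a short hairpin RNA (shRNA) against XBP-1s, the spliced form of the transcription factor XBP1 that drives part of the unfolded protein response, and is called shXBP-1s. The other carried a negative control hairpin and is called shCtrl. Total RNA of 3 samples per group was labelled with Cy3 and hybridised to 1 array each. The labels do not say that the samples of a group came from separate cultures or transductions, so the p-values measure the spread between these samples, which may be technical. The sources name 1 hairpin target per group and no further hairpin or rescue, so a change cannot be told apart from an effect of that hairpin or of the transduced population. The comparison asked which transcripts differ when XBP-1s is knocked down.

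TGF-beta and activin ligands are secreted dimers. They bring together a type II and a type I receptor kinase at the cell surface, and the type I receptor phosphorylates SMAD2 and SMAD3, which join SMAD4 and enter the nucleus. The pathway arrests the growth of normal squamous epithelium and, in carcinoma cells, is also known for induction of matrix and migration genes, while SMAD7 and secreted binding proteins such as follistatin restrain it.

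The probe for XBP1, the targeted gene, was lower in every knockdown sample, as the labels name them. Its signal was 369%, 360% and 365% of the array's 75th percentile on the shCtrl arrays and 70.7%, 69.0% and 69.5% on the shXBP-1s arrays. The groups lay far apart, with a log2 fold change of -2.39 (SE 0.04, n = 3 per group, limma adjusted p = 2.81e-07). The probe carries the accession of the XBP1 gene and was not used to tell the spliced from the unspliced transcript. All signals below are given in the same way, as a percent of the 75th percentile of all non-control probes on that array, and serve to compare arrays for 1 probe and not to compare probes. Fold changes and standard errors (SE) are on the log2 scale, as the mean of shXBP-1s minus the mean of shCtrl. A probe was called changed when its adjusted p was below 0.05 and its fold change at least 2.

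All 8 squamous epithelial marker genes (KRT5, KRT14, KRT17, TP63, SFN, DSG3, CDH1 and JUP) were well above background on all 6 arrays. Their summed signal, in multiples of the 75th percentile, ran from 82.2 to 89.4 in shCtrl and from 119 to 140 in shXBP-1s. Of the 8, 4 were called changed, all higher (KRT5, KRT14, KRT17 and DSG3). SFN and CDH1, which weigh most in the sum, were not called. The sum over 4 fibroblast markers ran from 0.796 to 0.893 in shCtrl and from 0.506 to 0.529 in shXBP-1s. COL3A1 was well above background on none of the 6 arrays, while LUM was called higher by 1.94 and PDGFRB lower by 1.28 on the log2 scale. All 4 leukocyte and all 4 endothelial markers were well above background on all 6 arrays, and none was called. On each array 82.1% to 84.8% of spots were well above background, so this does not show that such cells were present. The leukocyte sum ran from 0.772 to 0.841 in shCtrl and from 0.881 to 1.01 in shXBP-1s. The endothelial sum ran from 0.215 to 0.275 in shCtrl and from 0.260 to 0.277 in shXBP-1s. The part of these shifts in the results below was not tested. In bulk RNA, fewer cells of a type and less RNA per cell cannot be told apart. The arrays correlated at 0.993 or more within a group and between 0.981 and 0.986 across groups.

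Promoter sequence is shown for the members that were called (INHBA and TGFBR3) and for TGFB2, whose window held the letters of an XBP1 binding element. Each is the stretch of 250 bases that ends just before the annotated start of the transcript, taken from RefSeq (GRCh38.p14). Capitals mark matches to 5 motifs searched on both strands: the unfolded protein response element core TGACGTG, the ACGT-centred core GCCACGT, the SMAD palindrome GTCTAGAC, the SMAD3 and SMAD4 binding letters CAGACA (the CAGA box) and the AP-1 site TGAGTCA. No motif overlapped another in the windows shown.
INHBA, chr7:41703091-41703340, minus strand: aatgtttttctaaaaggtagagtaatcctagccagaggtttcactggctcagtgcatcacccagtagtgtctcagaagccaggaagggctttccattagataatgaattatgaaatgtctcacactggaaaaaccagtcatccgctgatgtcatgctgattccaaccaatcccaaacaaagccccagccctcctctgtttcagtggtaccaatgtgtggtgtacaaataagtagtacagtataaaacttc
TGFB2, chr1:218345086-218345335, plus strand: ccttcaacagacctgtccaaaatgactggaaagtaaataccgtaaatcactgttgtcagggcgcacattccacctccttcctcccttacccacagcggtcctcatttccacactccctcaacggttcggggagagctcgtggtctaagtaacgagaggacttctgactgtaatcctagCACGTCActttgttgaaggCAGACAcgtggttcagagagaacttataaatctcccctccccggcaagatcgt
TGFBR3, chr1:91886152-91886401, minus strand: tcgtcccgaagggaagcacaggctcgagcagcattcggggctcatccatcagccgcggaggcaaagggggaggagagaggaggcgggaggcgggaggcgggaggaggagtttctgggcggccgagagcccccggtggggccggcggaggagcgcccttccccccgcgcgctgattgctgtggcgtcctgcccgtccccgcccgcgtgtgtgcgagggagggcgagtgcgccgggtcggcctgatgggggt
The TGFB2 window held TGACGTG on the opposite strand, from 72 to 66 bases before the start, where it reads CACGTCA, and CAGACA from 53 to 48 bases before it. Of 35116 windows of this length from the same source, 1.68% held TGACGTG and 13.6% held CAGACA. The windows of INHBA and TGFBR3 held none of the 5 motifs.

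The 10 members had 25 such windows, since several genes start at more than 1 place. GCCACGT was in 1 of the 25 (a TGFB3 window) and in 2.78% of all windows, TGAGTCA in 1 (a SMAD3 window) and in 4.20%, and CAGACA in 4 (1 of TGFB2, 2 of TGFBR1 and 1 of SMAD3). GTCTAGAC was in none of the 25 and in 0.182% of all windows. A match describes the letters in the window and does not show binding, and no match says only that those letters are not there.

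Among the ligands, INHBA rose most, TGFB1 and TGFB2 rose by less than 2-fold, and TGFB3 did not pass the test. INHBA encodes the beta A subunit that forms activin A, the ligand of activin receptors. Its signal was 533%, 357% and 431% of the 75th percentile on the 3 shCtrl arrays and 2390%, 2610% and 2929% on the 3 shXBP-1s arrays. The lowest knockdown array was thus several times above the highest control array, and the groups did not overlap. The log2 fold change was 2.60 (SE 0.14, 95% interval 2.28 to 2.92), or 6.06-fold, with a limma adjusted p of 6.29e-06. In absolute size this change exceeded that of 99.8% of tested probes. The difference was 2.31 between the 3 shXBP-1s arrays and shCtrl replicate 1, the only control array that shared a scan identifier with the knockdown arrays. Here and below, arrays with the same scan identifier in the scanner files are taken to be on the same slide, which is an inference.

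TGFB1, the main TGF-beta ligand of most tissues, gave 11.5%, 11.4% and 12.1% in shCtrl and 18.8%, 17.7% and 16.6% in shXBP-1s. All knockdown arrays were higher than all control arrays, and the log2 fold change was 0.60 (SE 0.07, adjusted p = 3.13e-04). TGFB2, an isoform with a low affinity for TGFBR2 in the absence of betaglycan, gave 10.4%, 12.2% and 12.3% in shCtrl and 16.4%, 16.8% and 17.2% in shXBP-1s. These groups did not overlap either, at 0.53 (SE 0.08, adjusted p = 0.00121). With a normexp background correction in place of the scanner's own, the values fell to -0.05 for TGFB1 and -0.03 for TGFB2 and no longer passed the test. That correction moved the median of all tested probes to -0.41, and relative to that median both were higher, by 0.36 and 0.38.

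TGFB3, the isoform known for its part in palate fusion and wound repair, was 5.69%, 5.46% and 5.57% in shCtrl and 5.81%, 5.16% and 4.69% in shXBP-1s. The control values lay inside the knockdown range. The log2 difference was -0.10 (SE 0.10, adjusted p = 0.475), with a 95% interval from -0.34 to 0.14.

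**Figure D1:**
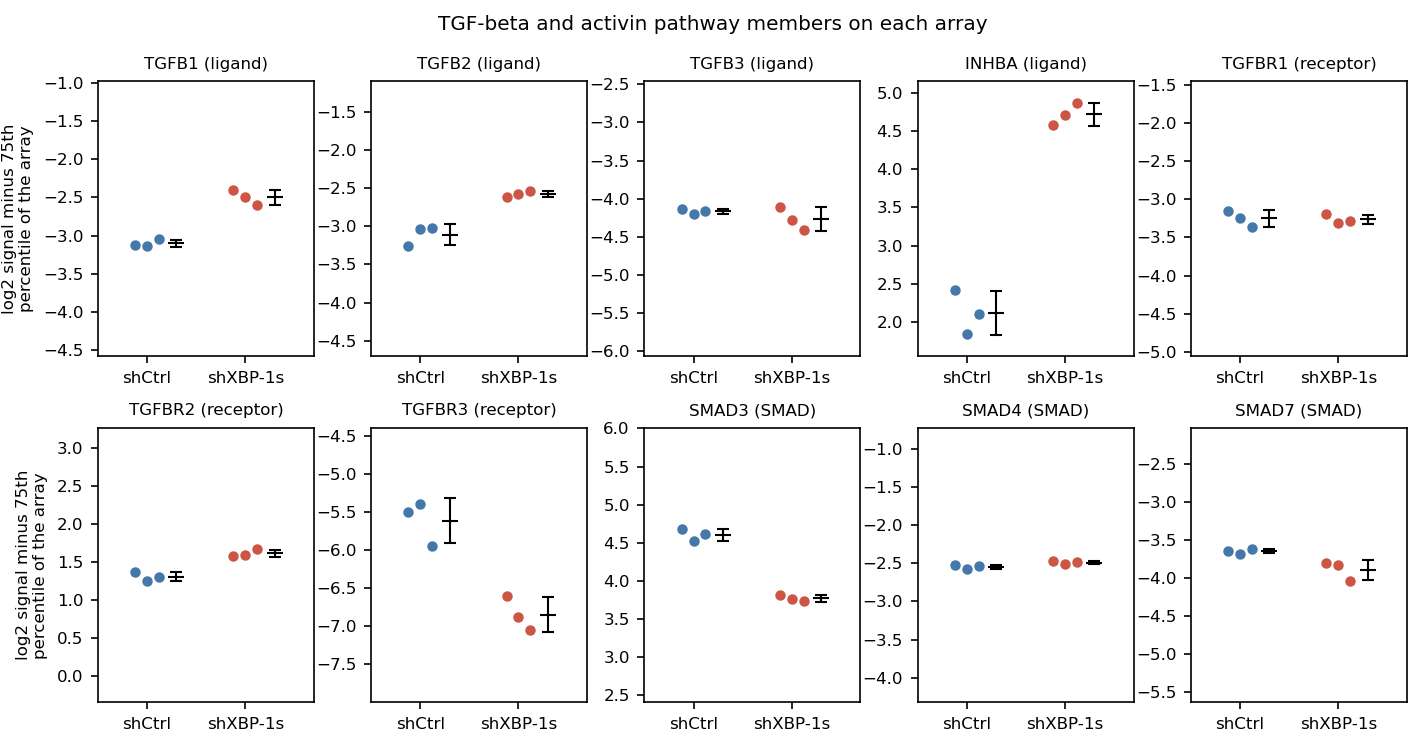
Each panel shows 1 member, with the log2 signal minus the 75th percentile of its array on the y axis and the group on the x axis; points are single arrays, and the black mark and bar are the mean and SD of 3 arrays. Every panel spans the same number of log2 units. The INHBA arrays of shXBP-1s sit 2.60 above those of shCtrl on average, SMAD3 and TGFBR3 lie lower in shXBP-1s, and the groups overlap for TGFB3 and TGFBR1.

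Among the receptors, TGFBR2 rose slightly, TGFBR3 fell and TGFBR1 did not pass the test. TGFBR2 is the type II kinase that binds TGF-beta first. It gave 258%, 238% and 247% in shCtrl and 300%, 302% and 318% in shXBP-1s. The groups were apart by a small margin, with a log2 fold change of 0.31 (SE 0.05, adjusted p = 0.00153), or 1.24-fold.

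TGFBR1, the type I kinase also called ALK5, gave 11.3%, 10.6% and 9.70% in shCtrl and 10.9%, 10.1% and 10.3% in shXBP-1s. The knockdown arrays lay within the control range. The difference was -0.01 (SE 0.08, adjusted p = 0.934), and the 95% interval of -0.20 to 0.18 leaves room for a small change in either direction.

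TGFBR3 encodes betaglycan, a coreceptor that presents TGF-beta, TGFB2 in particular, and that also binds inhibin. Its signal was 2.22%, 2.37% and 1.62% in shCtrl and 1.03%, 0.847% and 0.753% in shXBP-1s. All knockdown arrays were below all control arrays, at a log2 fold change of -1.23 (SE 0.21, 95% interval -1.73 to -0.74, adjusted p = 0.00231), or 2.35-fold lower. The probe was near background, being well above it on 3 shCtrl arrays and on 2 of 3 shXBP-1s arrays. With normexp the value was -1.06, or -0.65 relative to the median of all probes, with a limma adjusted p of 0.451. With normexp followed by quantile normalization it was -0.16, so the call was lost under both.

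Among the SMADs, SMAD3 fell in each knockdown array, whereas SMAD4 and SMAD7 did not pass the test. SMAD3, a receptor-activated SMAD that binds DNA directly, gave 2559%, 2290% and 2446% in shCtrl and 1408%, 1351% and 1333% in shXBP-1s. The values within each group were close and the groups were far apart. The log2 fold change of -0.83 (SE 0.06, 95% interval -0.96 to -0.70, adjusted p = 1.65e-05) is 1.78-fold and so did not meet the 2-fold minimum. With normexp the value was -0.72, or -0.30 relative to the median of all probes.

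SMAD4 is the common partner of the receptor-activated SMADs, and each of the 6 arrays detected its probe well above background. It gave 17.4%, 16.8% and 17.2% in shCtrl and 18.0%, 17.6% and 17.8% in shXBP-1s. The knockdown arrays were all marginally higher, but the difference of 0.06 (SE 0.06, adjusted p = 0.464) did not pass the test, and its 95% interval was -0.07 to 0.19. The probe reads transcript, and says nothing of SMAD4 protein or of its function in this line. With normexp the difference was -0.31, or 0.10 relative to the median of all probes.

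SMAD7, the inhibitory SMAD that TGF-beta itself induces, gave 7.98%, 7.82% and 8.12% in shCtrl and 7.14%, 7.03% and 6.08% in shXBP-1s. All knockdown arrays were lower, by -0.24 on the log2 scale (SE 0.09, 95% interval -0.45 to -0.04). The adjusted p of 0.0604 missed the threshold, and fell below it with quantile normalization (0.0392), with the deposited log2 values (0.0326) and without a trend in the variance model (0.0481).

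**Figure D2:**
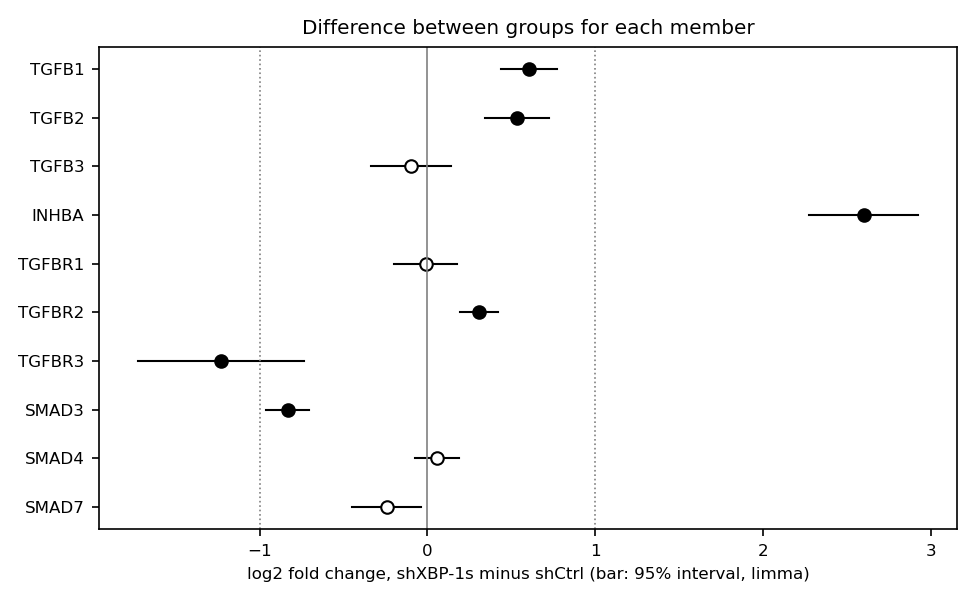
Log2 fold change of each member on the x axis, shXBP-1s minus shCtrl, with bars for the 95% limma interval; filled points have an adjusted p below 0.05 and dotted lines mark a 2-fold change. INHBA at 2.60 and TGFBR3 at -1.23 lie past the dotted lines, and the intervals of TGFB3, TGFBR1 and SMAD4 include 0.

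In all, 2 of the 10 members were called changed, beside 4.9% of all tested probes (1354 of 27624). Of these 2, TGFBR3 was kept for testing through the control group alone, the group where it was higher. It is untested if a signal well above background is required on every array, and INHBA is then the only member called. Without the 2-fold minimum 6 members passed, TGFBR3 among them, beside 41.7% of all probes. Of the 6, 4 were higher (INHBA, TGFB1, TGFB2 and TGFBR2) and 2 lower (SMAD3 and TGFBR3), while 18.4% of all probes passed as higher and 23.3% as lower. The groups did not overlap for 8 of the 10, beside 52.4% of all probes. The median log2 fold change was 0.02 over the members and -0.02 over all tested probes. An exact two-sided permutation test of 3 against 3 arrays cannot give a p below 0.1, so the calls rest on the model fitted across all probes.

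The genes whose change across the 6 arrays was most like that of INHBA were OLAH, CEMIP and ENTPD3. Likeness was the root mean square distance between log2 signals after each gene was centred on its own shCtrl mean. OLAH, a fatty acid synthase thioesterase, was at a distance of 0.0686 and was 2.53 higher (SE 0.19), but only 1 of the 3 shCtrl arrays was well above background for it. Its control values, and so its rise and its place in this order, rest on signals near background. CEMIP, a protein needed for hyaluronan breakdown, was at 0.191 and rose by 2.45 (SE 0.10). ENTPD3, an ectonucleotidase, was at 0.214 and rose by 2.40 (SE 0.10).

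The rest of the pathway was described from 7 lists by role, holding 92 genes that are not members, of which 85 had a tested probe. For a gene with several probes the brightest was used. Of the 85, 10 were called higher and 7 lower, against 2.3% and 2.88% of all genes (387 and 484 of 16821), so 17 were called where 5.18% of all genes were. Without the 2-fold minimum 52 of the 85 passed, with 29 higher and 23 lower, beside 46.4% of all genes. The median was 0.05 over the 85 and -0.04 over all genes.

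**Figure D3:**
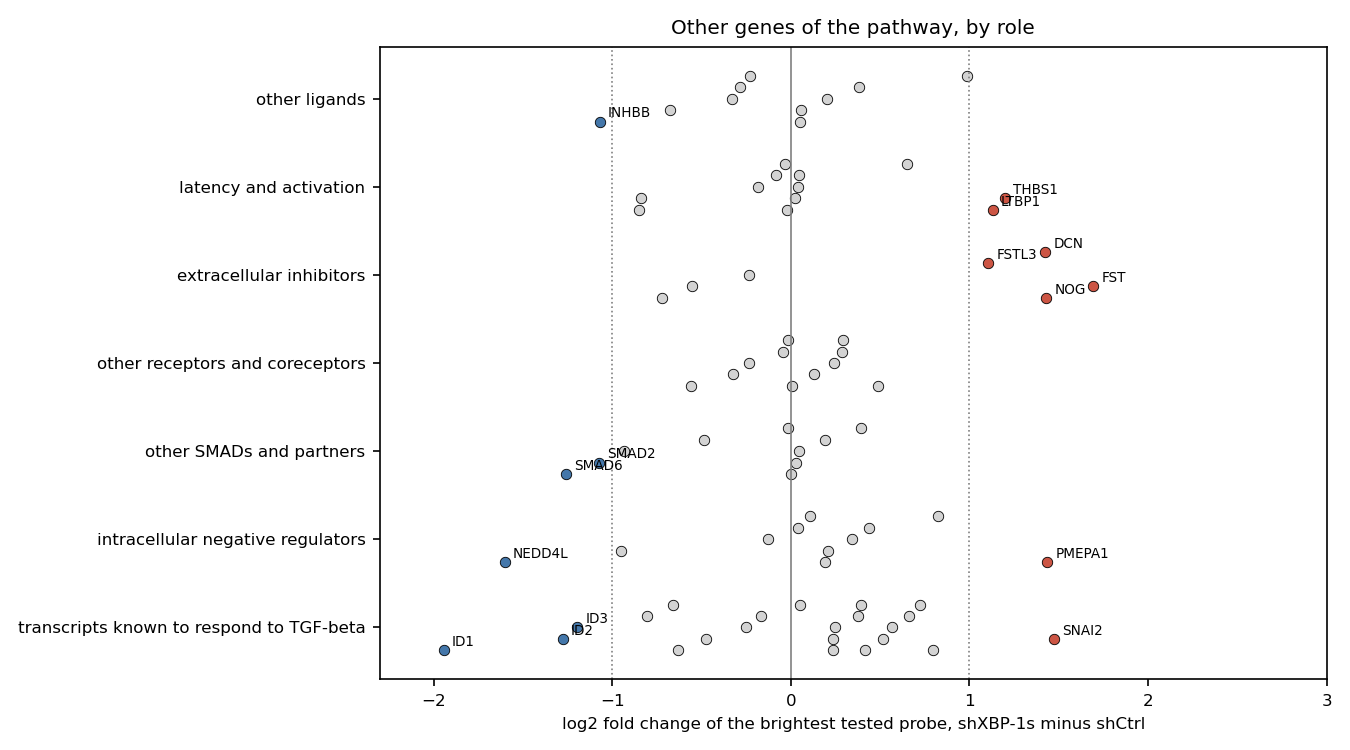
Each point is 1 tested gene of the pathway (not every tested gene is drawn), with the log2 fold change of its brightest probe on the x axis and its list on the y axis; red points were called higher, blue points called lower, and dotted lines mark a 2-fold change. The 4 called inhibitors lie to the right of 1, and ID1, ID2 and ID3 to the left of -1.

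Secreted inhibitors of activins and bone morphogenetic proteins (BMPs) were higher in the knockdown. Of 8 listed, 7 were tested, 4 were called higher and none lower, with a median of 1.11. FST, or follistatin, which binds activin A nearly irreversibly, was 101%, 83.3% and 91.8% in shCtrl and 291%, 292% and 307% in shXBP-1s. The groups did not overlap and the log2 fold change was 1.69 (SE 0.07, adjusted p = 2.67e-06). FSTL3, a follistatin relative with the same ligands, was 30.3%, 28.5% and 30.1% in shCtrl and 63.4%, 62.4% and 65.7% in shXBP-1s, a rise of 1.11 (SE 0.05, adjusted p = 3.95e-06).

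The BMP antagonist NOG rose by 1.43 (SE 0.11) and the TGF-beta-binding proteoglycan DCN also by 1.43 (SE 0.11), but normexp turned both below 0, to -0.38 and -0.32, which is 0.04 and 0.09 above the median of all probes. Both were dim, at 1.97% to 2.20% and 1.74% to 1.96% of the 75th percentile in shCtrl and at 5.22% to 6.13% and 4.74% to 5.36% in shXBP-1s. Among these inhibitors, FST and FSTL3 bind the product of INHBA.

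Of the proteins that hold TGF-beta latent or release it, 12 of 12 were tested, 2 were called higher and none lower. THBS1, or thrombospondin 1, a matrix protein that can activate latent TGF-beta, gave 762%, 602% and 656% in shCtrl and 1494%, 1556% and 1560% in shXBP-1s. It rose by 1.20 (SE 0.08, adjusted p = 1.91e-05), and its other probe, at 0.96, was below 2-fold. LTBP1, which tethers latent TGF-beta to the matrix, rose by 1.13 (SE 0.05) at one probe and 1.37 at the other, and with normexp by 0.52, with an adjusted p of 0.111. The list's median was 0.00.

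Of 13 other ligands, 10 were tested and 1 was called, INHBB, the activin beta B subunit. It gave 9.53%, 13.4% and 12.5% in shCtrl and 5.15%, 5.51% and 6.06% in shXBP-1s, so it moved opposite to INHBA, at -1.07 (SE 0.14, adjusted p = 4.49e-04). The fall was below 2-fold against the control on the same slide (-0.78) and without shCtrl replicate 2 (-0.97). BMP2 was 0.98 higher (SE 0.10, adjusted p = 1.29e-04), just under 2-fold, and 1.17 higher within the slide. With normexp it was 0.24 higher and no longer passed the test (adjusted p = 0.573), and with normexp followed by quantile normalization it was 0.66 higher.

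None of the 11 tested among 13 other receptors and coreceptors was called, although 5 passed without the 2-fold minimum. The highest was ACVR1, a type I receptor for activins and BMPs, at 0.49 (SE 0.04, adjusted p = 5.25e-05). The lowest was ACVR2B, a type II activin receptor, at -0.56 (SE 0.07, adjusted p = 4.04e-04). With normexp ACVR2B was at -0.67, or -0.26 relative to the median of all probes, with a limma adjusted p of 0.114.

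Among the other SMADs and their partners, 10 of 10 were tested and 2 were called, both lower. SMAD2, the other receptor-activated SMAD of the TGF-beta branch, gave 36.4%, 32.6% and 34.5% in shCtrl and 17.4%, 16.2% and 15.4% in shXBP-1s. It fell by 1.08 on the log2 scale (SE 0.07, adjusted p = 1.48e-05), the same direction as SMAD3. SMAD6, an inhibitory SMAD of the BMP branch, gave 13.2%, 14.5% and 11.1% in shCtrl and 5.35%, 5.43% and 5.32% in shXBP-1s, and fell by 1.26 (SE 0.11, adjusted p = 5.27e-05). With normexp SMAD6 was at -1.14, or -0.72 relative to the median of all probes, with a limma adjusted p of 0.136.

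The intracellular negative regulators went both ways, with 1 of 11 called higher and 1 lower and a median of 0.19. PMEPA1, a membrane protein that sequesters SMAD2 and SMAD3 and is itself a TGF-beta target, rose from between 187% and 198% to between 485% and 566%, by 1.43 (SE 0.06, adjusted p = 3.48e-06) at one probe and by 1.74 at the other. NEDD4L, a ubiquitin ligase for activated SMAD2 and SMAD3, fell from between 155% and 172% to between 51.3% and 57.0%, by 1.60 (SE 0.06, adjusted p = 2.1e-06). Another NEDD4L probe was at -1.64 and the remaining probe at 0.44, so the probes of this gene disagree.

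Of 25 transcripts known to respond to TGF-beta in epithelial or mesenchymal cells, 24 were tested, 3 were called higher and 3 lower, and the median was 0.24. SNAI2, a transcription factor of basal and migrating epithelium, rose by 1.47 (SE 0.06, adjusted p = 2.28e-06).

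The 3 called lower were all inhibitors of DNA binding, known as targets of BMP signalling that TGF-beta represses in epithelial cells. They were not the only ones to fall. Without the 2-fold minimum, 8 of the 24 passed as lower and 12 as higher. ID1 gave 6757%, 6747% and 6866% in shCtrl and 1830%, 1799% and 1668% in shXBP-1s, a fall of 1.94 on the log2 scale (SE 0.05, adjusted p = 1.09e-06). The spread within each group was small beside that difference. ID3 fell by 1.20 (SE 0.06, adjusted p = 6.29e-06), and ID2 fell by 1.28 (SE 0.10, adjusted p = 4.26e-05) at one probe and by 1.43 at the other.

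The background correction decided several of the pathway calls. With normexp, 9 of the 17 were called, and of the genes named here FSTL3 (0.75), NOG, DCN, LTBP1, SMAD6, INHBB (-1.06, adjusted p = 0.246) and ID2 (-1.14, adjusted p = 0.302) did not meet the rule. With normexp followed by quantile normalization 7 were called, and these genes, SMAD2 (-0.75) and ID3 (-0.76) were below 2-fold. FST, THBS1, PMEPA1, NEDD4L, SNAI2 and ID1 met the rule under both. Relative to the median of all probes, the normexp falls were smaller, at -0.65 for INHBB, -0.72 for ID2, -0.63 for SMAD2 and -0.72 for ID3.

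**Figure D4:**
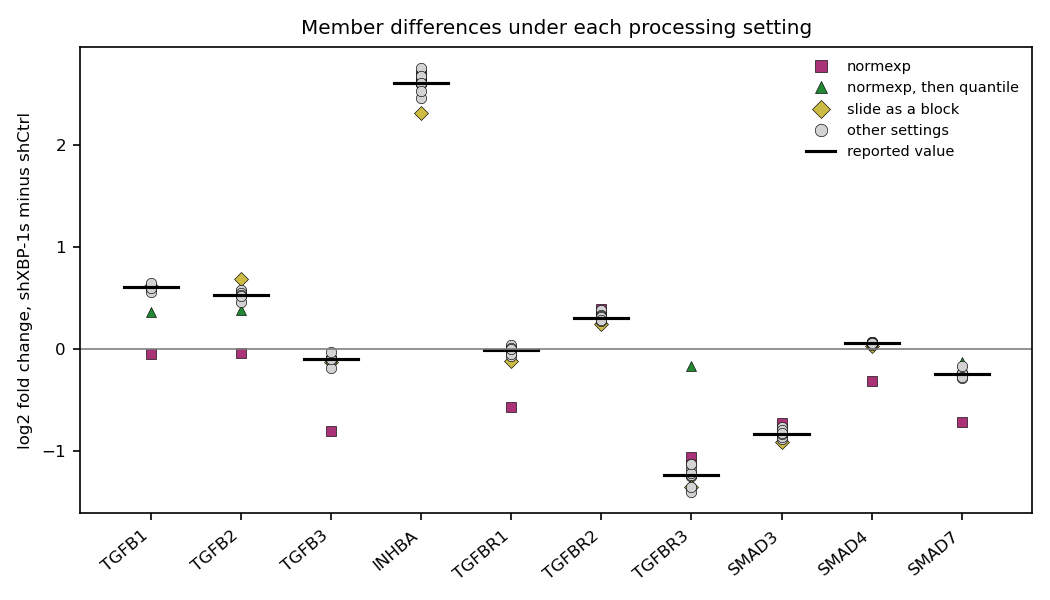
Log2 fold change of each member on the y axis under every processing setting tried; the black line is the reported value and symbols are single settings, with normexp, normexp followed by quantile normalization and the slide block drawn apart. INHBA stays between 2.31 and 2.75 and SMAD3 between -0.91 and -0.72, whereas TGFB1 and TGFB2 reach -0.05 and -0.03 with normexp. The normexp values are drawn as fitted and not relative to the median of all tested probes, which was -0.41 there. Relative to that median, SMAD3 was at -0.30 with normexp.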

How the data were processed

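Total RNA of 6 CAL-27 samples (3 shCtrl, 3 shXBP-1s) was measured on Agilent human expression arrays read in 1 colour. The authors deposited scanner output with a processed signal intensity per spot, background-subtracted by Feature Extraction 11.0.1.1, and a table of log2 values; the submitters' processing notes name RMA, and the labelling text describes a NimbleGen procedure. The number of arrays limits the precision. Spots well above background made up 82.1% to 84.8% per array, none was saturated, and 230 to 377 spots per array carried outlier marks and were left out.

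The log2 intensity minus each array's 75th percentile was averaged over the spots of a probe. A probe was kept if either group had it well above background on each of its 3 arrays. Kept probes were compared with limma 3.58.1 in R 4.3.3 (lmFit, then eBayes with the trend option), and p-values were adjusted over all of them by Benjamini-Hochberg. Control spots were left out. RefSeq accessions gave a symbol to 25771 probes, and 8356 had none. Array annotation follows hg19, so no probe coordinates are given. The fitting step was tested on simulated data.

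The pathway genes named were the called genes of each list, at most 6 by smallest p, and the 2 with the smallest p where fewer than 2 were called. The members and lists were chosen with earlier results of these data known. Alternatives covered background correction, normalization, the deposited log2 values, filters, variance model, replicate and slide blocks, the methods' own test, thresholds and each array left out. Some genes counted in the lists are not reported here by name or drawn.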

Additional observations from a re-analysis of the deposited data

How the results depend on the processing

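Of 179 values for the 10 members under the alternatives, 171 kept their direction and stayed called or not called, as did 315 of 340 for the named pathway genes. Called here means an adjusted p below 0.05 together with a change of at least 2-fold. A move of the adjusted p across 0.05 below 2-fold was not counted, so SMAD7 and ACVR2B count as unchanged although theirs crossed it under some alternatives. The background correction changed most. With normexp, 473 probes were called (159 higher and 314 lower, against 632 and 722), with 1 member (INHBA) and 9 pathway genes, and with normexp followed by quantile normalization 363 probes, 1 member and 7 pathway genes. Normexp turned SMAD4 (-0.31), TGFB2 (-0.034), TGFB1 (-0.049), NOG (-0.38) and DCN (-0.32) below 0. It also moved the median of all tested probes to -0.41. Relative to that median each of these genes stayed above 0 (SMAD4 0.10, TGFB2 0.38, TGFB1 0.36, NOG 0.04 and DCN 0.09). The cause was not tested. Leaving out 1 array at a time moved TGFBR1 between -0.067 and 0.041, across 0, and changed no member's call. Requiring a signal well above background on all 6 arrays left TGFBR3 untested and 1 member called. Without a minimum fold, 11516 probes, 6 members and 52 pathway genes passed, counts that by construction cannot be lower than with the minimum. The methods' own test gave 1291 probes, and 1214 after Benjamini-Hochberg adjustment, each with 2 members and 17 pathway genes.

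The replicate numbers did not pair the samples: the deviations of same-numbered arrays correlated at -0.02, 0.12 and -0.12. A replicate block gave 1381 called probes, 2 members and 17 pathway genes. The slide block, which rests on shCtrl replicate 1 as the only control, changed no member's call.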

Other observations

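Several genes of the pathway lists passed the test below 2-fold and were picked out after their values were seen. In limma with Benjamini-Hochberg adjustment, SKIL, a corepressor of SMADs, was higher by 0.83 (SE 0.06, adjusted p = 2.27e-05) and SMURF2, a ubiquitin ligase for TGF-beta receptors and SMADs, at -0.95 (SE 0.09, adjusted p = 1.12e-04) on the log2 scale. ITGB6, the beta chain of an integrin that activates latent TGF-beta on epithelium, was higher by 0.65 (SE 0.09, adjusted p = 8.61e-04). LTBP3, which tethers latent TGF-beta, differed by -0.84 (SE 0.07, adjusted p = 3.87e-05), opposite in direction to LTBP1. SNAI1 differed by -0.66 (SE 0.09, adjusted p = 5.5e-04), opposite in direction to its relative SNAI2. For each of these genes the 3 arrays of one group lay entirely above those of the other, as they did for 52.4% of all tested probes. Since the genes were picked after their values were seen, that separation adds no support.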
